A study of Homo sapiens with 6 samples.

Results

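The 7 genes described here belong to the plasminogen activation system and to the serpin family of protease inhibitors. They were listed by name, and all 7 were present among the 16306 genes of the deposited gene table. PLAU encodes urokinase (uPA), PLAUR its cell surface receptor (uPAR) and PLAT tissue-type plasminogen activator (tPA). SERPINE2 encodes protease nexin-1, and SERPINB1, SERPINB5 and SERPINB6 are clade B serpins, which lack a classical secretion signal and act mostly inside the cell.

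RNA-seq was performed on PC9 cells, a human lung adenocarcinoma line with an activating exon 19 deletion in EGFR. The groups were 3 libraries from cells with a negative control shRNA (sh-NC) and 3 libraries from cells with an shRNA against the splicing factor RBM10 (shRBM10). No drug or time point is given, and all 6 libraries share the EGFR deletion of the line. The comparison asks which genes differ once RBM10 is depleted in EGFR-mutated lung adenocarcinoma cells, in a study of metastasis to the brain. The study used 2 RBM10 shRNAs in all, and the labels do not say which of them these libraries carry. The labels also do not say that replicates came from separate cultures, so p-values measure only the spread between these samples, which may be technical. The sh-NC columns and 1 shRBM10 column (library A, replicate 1) match sample titles. The columns of the 2 other shRBM10 libraries (B and C) show the group but no replicate number.

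Plasminogen circulates as an inactive precursor, and uPA and tPA cleave it to plasmin, a broad protease that dissolves fibrin and helps cells to pass through matrix. uPA acts mainly on the cell surface, where uPAR holds it in place, whereas tPA acts mainly on fibrin and is also found in the brain. Serpins end this activity by trapping the protease in an irreversible complex. Serpins that block plasminogen activators have been studied in metastasis to the brain.

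In the check of the targeted gene, RBM10 had normalized counts of 1431, 1183 and 1469 (sh-NC replicates 1, 2 and 3) against 537, 515 and 672 (shRBM10 libraries A, B and C), so the targeted transcript was lower in every shRBM10 library. Normalized counts are estimated reads scaled by TMM, which sets libraries to a common effective depth. Total counts per library ranged from 16606390 to 18864243. sh-NC replicate 2 stood apart, with a TMM factor of 0.738 against 1.03 to 1.08 in the other 5 libraries. shRBM10 library C differed less from sh-NC replicates 1 and 3 (chi-square per degree of freedom over genes of 29.8 and 30.2) than from libraries A and B (97.9 and 53.9). Of 11 epithelial and lung adenocarcinoma markers, 9 were tested and detected, among them EPCAM and the keratins of simple epithelia, and NKX2-1 and SFTPB were at or near 0. A protocol in the labels names retinas as the source. Of 9 retina markers, 8 had under 5 normalized counts in every library or were not analysed here, and the summed count of the list was at most 9.98 in any library.

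Transcript forms separate 2 of the members, SERPINE2 and PLAUR, and the sequences at which the forms part in the coding region are shown. In both genes the forms also differ outside the printed bases. Each line gives bases of the mature transcript, read 5′ to 3′ from GENCODE transcripts on GRCh38. The 15 bases in lower case are shared by both forms, and the 15 in capitals follow the splice junction.
SERPINE2 NM_001136528: ttgcaaaaataacaaGGTCAGAAAACCTCC
SERPINE2 NM_006216: ttgcaaaaataacaaCAGGGTCAGAAAACC
PLAUR NM_002659: ccaccggcactcacgAACCGAAAAACCAAA
PLAUR NM_001005376: ccaccggcactcacgAACGCTCACTCTGGG
In SERPINE2 (chromosome 2, minus strand) both forms leave the exon that ends at base 223982681. They enter the next exon at 223980397 in NM_001136528 and at 223980400 in NM_006216, so that these neighbouring acceptors differ by the 3 bases CAG. In PLAUR (chromosome 19, minus strand) both forms leave the exon that ends at 43652225. NM_002659 goes on at 43649143 and encodes the receptor with its lipid (GPI) anchor, while NM_001005376 goes on at a last exon of its own, at 43646548, and encodes a form without the anchor. All printed bases are coding.

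No member passed the test by edgeR's quasi-likelihood method at an adjusted p under 0.05 with an absolute log2 fold change over 1, a limit that 2 of the 12620 genes tested passed (0.0158%). By a looser rule (unadjusted p under 0.05, same fold limit), 1 member (PLAT) was lower in shRBM10, as were 1.53% of all genes tested. No member was higher by this rule, against 10.1% of all genes. The libraries of the groups did not overlap for 1 member, again PLAT, and lower in shRBM10, as for 16.2% of all genes tested, so this count of 1 in 7 is near the background. The other 6 members overlapped, where 13.8% of all genes were higher in every shRBM10 library. The median log2 fold change of the members was -0.0032, against 0.027 over all genes tested.

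PLAT (Entrez gene 5327; chromosome 8, 42175233 to 42207724, minus strand, GRCh38), the fibrin-directed activator, had normalized counts of 944, 876 and 876 (sh-NC replicates 1, 2 and 3) against 238, 225 and 393 (shRBM10 libraries A, B and C, in this order throughout). The sh-NC libraries lay close together, and every shRBM10 library lay far below them, library C the least. PLAT averaged 899 ± 39.1 across sh-NC but 285 ± 93.3 across shRBM10 (SD, n = 3 each), or 31.7% of the sh-NC level. An exact permutation test (two-sided) gave p = 0.1, and 3 against 3 cannot go lower. The log2 fold change was -1.65 with a standard error (SE) of 0.28 and a 95% interval from -2.28 to -1.03. Its unadjusted p was 0.000165, the 22nd smallest of all genes tested, and its adjusted p was 0.0894 by edgeR's quasi-likelihood test. The difference in PLAT did not rest on the library that stood apart: without sh-NC replicate 2 the log2 fold change was -1.75 (edgeR adjusted p = 0.0685).

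The sign of the PLAT difference was the same in all 16 alternatives, with log2 fold changes from -2.005 to -1.51, and its libraries stayed apart in each of them. The call depended on the tool. DESeq2 called PLAT (log2 fold change -1.67, adjusted p = 7.9e-05), where it called 0.998% of genes as lower. edgeR without a filter on low counts called it too (adjusted p = 0.0487, with 0.0614% of genes called as lower), as did edgeR with the trend on GC content removed and sh-NC replicate 2 left out (adjusted p = 0.0227, with 0.821% of genes called as lower). The adjusted p stayed above 0.05 in the 13 other alternatives and reached 0.452 without shRBM10 library B.

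Endothelial cells are a type in which tPA is well known. Of 5 endothelial markers, 2 were tested, and both were lower in shRBM10 by the unadjusted rule, as were 1.53% of all genes tested. CDH5, the cadherin of endothelial junctions, had 161, 83.5 and 159 normalized counts in sh-NC, against 41.1, 59.4 and 54.7 in shRBM10 (log2 fold change -1.38, unadjusted p = 0.00283). VWF, the von Willebrand factor, had 24.5, 15.1 and 16.2 against 5.13, 8.62 and 8.64 (log2 fold change -1.31, unadjusted p = 0.00919). edgeR called neither CDH5 nor VWF (adjusted p = 0.144 and 0.155). DESeq2 called CDH5 (log2 fold change -1.40, adjusted p = 0.0191), where it called 0.998% of genes as lower, and gave VWF no adjusted p. The defining markers PECAM1, KDR and TEK were at 3.08 normalized counts or fewer in every library. The summed level of the list ranged from 100 to 188 in sh-NC and from 49.3 to 69.9 in shRBM10. The part of these markers in the PLAT result was not tested. All 6 libraries are from the PC9 line, and a bulk library does not show which cells carried these RNAs.

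**Figure D1:**
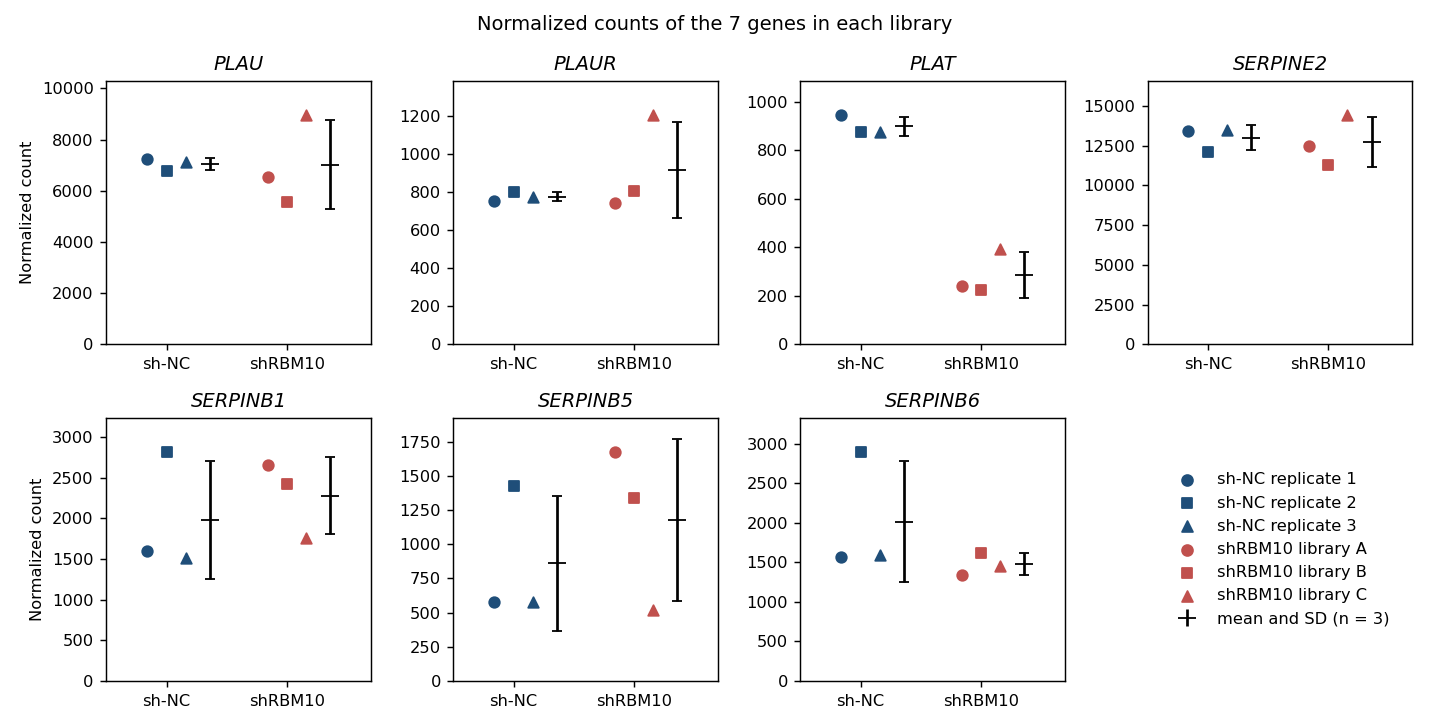
Normalized counts (vertical axes, linear from 0) of the 7 genes in each library, with blue symbols for sh-NC and red symbols for shRBM10 and black bars for the mean and SD of 3 libraries. PLAT is the only gene whose groups separate (876 or more against 393 or fewer), SERPINB1, SERPINB5 and SERPINB6 have one high sh-NC library, replicate 2, and PLAUR and PLAU are highest in shRBM10 library C.

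PLAU (Entrez gene 5328; chromosome 10, 73909177 to 73917497, plus strand), the surface-bound activator, had 7229, 6770 and 7106 normalized counts in sh-NC, against 6539, 5572 and 8947 in shRBM10. The sh-NC libraries lay within 1.07-fold of each other, and the shRBM10 libraries lay on both sides of them, A and B below and C above. The means were 7035 ± 238 and 7019 ± 1738 (SD, n = 3 each). Its log2 fold change was -0.0032 (SE 0.25), and the 95% interval from -0.56 to 0.56 leaves out a change as large as that of PLAT. Without library C the remaining shRBM10 libraries lay below sh-NC (log2 fold change -0.27, edgeR adjusted p = 0.340), as for 30.5% of all genes in that setting. On the opposite strand, C10orf55 shares 771 of 2687 exon bases of PLAU (28.7%), in an exon set smaller than the 2950 bases used for levels per kilobase. Whether counting used the strand is not given in the sources used here, and C10orf55 was not analysed here.

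PLAUR (Entrez gene 5329; chromosome 19, 43646095 to 43670547, minus strand), which holds uPA at the membrane, had 754, 801 and 774 normalized counts in sh-NC, against 741, 806 and 1205 in shRBM10. Libraries A and B lay at the sh-NC level, and library C alone was high. A log2 fold change of 0.24 was fitted (SE 0.25, 95% interval -0.32 to 0.80, edgeR adjusted p = 0.539). It was -0.050 without library C, so that the sign of the mean difference rested on that library. With the trend of each library on GC content removed, the groups did not overlap: 714, 722 and 728 in sh-NC against 873, 920 and 1117 in shRBM10, and the log2 fold change was 0.43 (edgeR adjusted p = 0.235). In that setting 13.1% of all genes tested were apart and higher.

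SERPINE2 (Entrez gene 5270; chromosome 2, 223975112 to 224039319, minus strand), an inhibitor of thrombin, uPA and tPA, had 13439, 12084 and 13482 normalized counts in sh-NC, against 12511, 11304 and 14416 in shRBM10. The groups overlapped throughout, and all 6 libraries lay within 1.28-fold. SERPINE2 had a log2 fold change of -0.029 (SE 0.24, 95% interval -0.57 to 0.51). With the GC trend removed it was -0.60 (edgeR adjusted p = 0.344), with 7533 and 8233 in libraries A and B against 15247 to 18322 in sh-NC, while library C had 16602, inside the sh-NC range.

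For each of the 3 clade B serpins, the SD within sh-NC was larger than the difference of the group means. SERPINB1 (Entrez gene 1992; chromosome 6, 2832332 to 2842006, minus strand), an inhibitor of neutrophil elastase, cathepsin G and proteinase 3, had 1603, 2817 and 1516 normalized counts in sh-NC, against 2662, 2423 and 1755 in shRBM10. sh-NC replicate 2 was the highest library of all, next to libraries A and B, and library C lay close to sh-NC replicates 1 and 3. For SERPINB1 the log2 fold change was 0.21 (SE 0.30, edgeR adjusted p = 0.662). Without sh-NC replicate 2 all shRBM10 libraries lay above sh-NC (log2 fold change 0.46, edgeR adjusted p = 0.209), in a setting where 18.3% of all genes did. With the GC trend removed the sign turned (-0.23).

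SERPINB5 (Entrez gene 5268; chromosome 18, 63476761 to 63505085, plus strand), also called maspin, is a serpin without protease-inhibitory action that is known as a tumour suppressor in breast epithelium. It had 577, 1427 and 574 normalized counts in sh-NC, against 1674, 1335 and 521 in shRBM10. The libraries fell at high and low levels across the labels, with sh-NC replicate 2 and libraries A and B high and sh-NC replicates 1 and 3 and library C low. For SERPINB5 the log2 fold change was 0.46 with the widest error of the 7 members (SE 0.47, 95% interval -0.60 to 1.51). It was 0.94 without sh-NC replicate 2 and -0.38 with the GC trend removed, and neither passed (edgeR adjusted p = 0.209 and 0.672).

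SERPINB6 (Entrez gene 5269; chromosome 6, 2948159 to 2972165, minus strand), which inhibits cathepsin G and other serine proteases, had 1565, 2898 and 1588 normalized counts in sh-NC, against 1347, 1622 and 1461 in shRBM10. Replicate 2 alone was high, and library B reached above the 2 lower sh-NC libraries. For SERPINB6 the log2 fold change was -0.45 (SE 0.28, 95% interval -1.08 to 0.18, edgeR adjusted p = 0.318), and -0.18 without sh-NC replicate 2, where the groups no longer overlapped, as for 28.5% of all genes in this direction. It kept its sign in all 16 alternatives. With the GC trend removed all shRBM10 libraries lay below sh-NC (911, 1285 and 1622 against 1755 to 3879, log2 fold change -0.96, edgeR adjusted p = 0.252), as did those of 17.3% of all genes. With the trends on GC content and length removed together it was -1.34 with an adjusted p of 0.200 by edgeR and passed the unadjusted rule, as did 2.26% of genes in this direction.

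**Figure D2:**
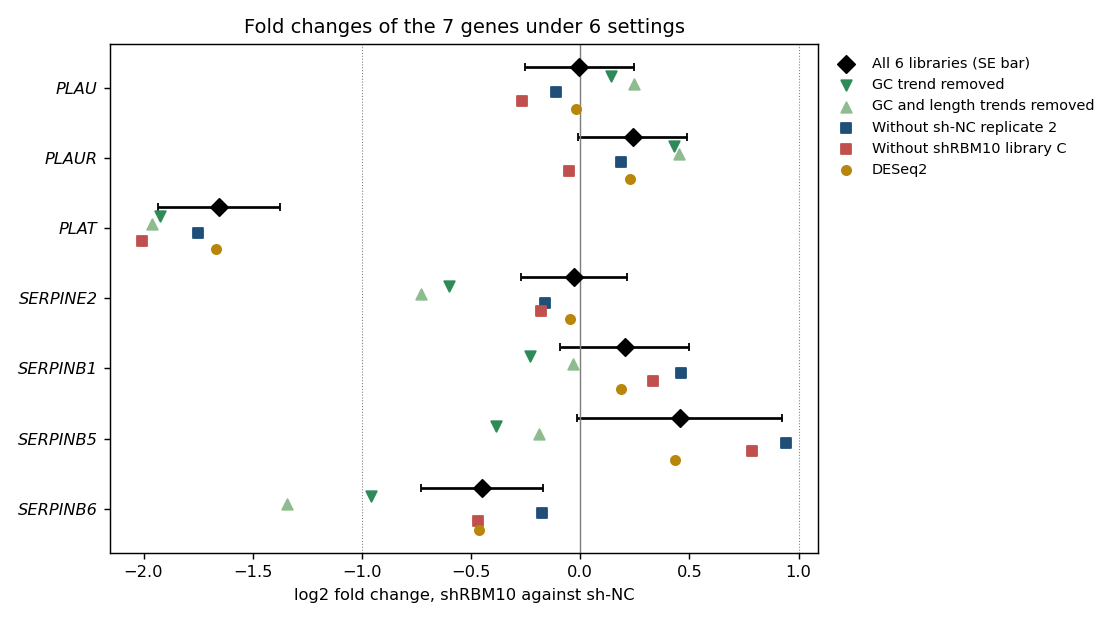
Log2 fold change of shRBM10 against sh-NC (horizontal axis) for the 7 genes (rows), with one symbol per setting and the SE as a bar on the value from all 6 libraries. PLAT lies between -2.005 and -1.65 under all 6 settings shown, SERPINB6 is always below 0, and SERPINB1 and SERPINB5 change sign once the GC trend is removed.

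The GC content of the exons of the members ran from 41.0% (SERPINE2) to 55.7% (PLAUR), against a median of 48.8% over the genes tested. Removing the GC trend lowered the fold change of the 5 members below that median and raised it for PLAU and PLAUR, which lie above it. Over all genes the split at the unadjusted rule moved from 1272 higher and 193 lower to 267 higher and 321 lower. Among the members, 1 was lower and none higher by this rule in both settings, against 2.54% lower and 2.12% higher over all genes once the trend was removed.

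Levels of different genes were compared per kilobase of exon. In sh-NC, PLAU was the highest member at 2385 ± 80.5 normalized counts per kilobase (SD, n = 3), followed by SERPINE2 at 1462 ± 89.4 and SERPINB1 at 640 ± 235. SERPINB5 (218 ± 125), PLAUR (174 ± 5.33), SERPINB6 (153 ± 57.8) and PLAT (136 ± 5.91) followed per kilobase. The sh-NC ranges of neighbours overlapped from SERPINB5 down to PLAT, while SERPINB1 lay above SERPINB5 without overlap. In shRBM10 the order per kilobase was the same, from PLAU at 2379 ± 589 to PLAT at 43.1 ± 14.1, and PLAT was the lowest member in both groups. The order depends on the length used. Per kilobase of the transcript with the most reads, SERPINE2 (6017 in sh-NC) lay above PLAU (3031), SERPINB6 came next (1258), and PLAT (332) and SERPINB5 (309) were lowest.

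Genes with the most similar course over the 6 libraries were found by the root mean square (RMS) difference of log2 normalized counts after each gene's own mean was taken off, among 11065 genes. For PLAT they were HR (0.041), LHX5 (0.097) and CACNG6 (0.20). HR, a transcriptional corepressor, had 733, 656 and 715 normalized counts in sh-NC, against 181, 170 and 300 in shRBM10, and like PLAT it was least low in library C. For PLAU they were PDIA4, S1PR2 and PWWP3A, and for PLAUR they were UPK3B, CTSA and NEU1, all 6 at an RMS difference of 0.069 or less. For SERPINE2 they were FBH1, SLC35E1 and ANKH, for SERPINB1 ACAA2, CWC15 and RPL6, and for SERPINB6 ARL16, GTF3A and TMEM18. The nearest genes of SERPINB5 were farther away: SINHCAF (0.12), LIAS (0.14) and UQCRC2 (0.16). These are descriptions over 6 libraries that share depth and composition.

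The deposited transcript table divides the counts of 5 members over more than 1 tested transcript. Of 8348 genes tested for transcript usage with edgeR's diffSpliceDGE and a Simes p per gene, 8 were called at an adjusted p under 0.05 (0.0958%), and none of the 5 members was. The main form, NM_002658 of PLAU, took 91.8%, 90.7% and 92.3% of the count of the gene in sh-NC, against 93.5%, 93.3% and 94.7% in shRBM10. The second form of PLAU, NM_001319191, took 7.08%, 7.88% and 6.23% in sh-NC, against 3.98%, 4.71% and 3.74% in shRBM10. Its share was lower in every shRBM10 library (7.06 ± 0.83% against 4.14 ± 0.50%, SD, n = 3 each; exact permutation test, two-sided, p = 0.1). Among all transcripts with a mean share of at least 5%, 7.07% were apart in this direction. The usage test for PLAU gave an unadjusted Simes p of 0.362. Its gene-level F test gave an unadjusted p of 0.0165 (edgeR adjusted p = 0.727), under the unadjusted limit as in 3.94% of genes.

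For PLAUR, the GPI-anchored form NM_002659 took 78.1%, 67.9% and 77.0% in sh-NC, against 70.2%, 66.6% and 78.6% in shRBM10. The form without the anchor, NM_001005376, took 13.6%, 15.3% and 11.9% in sh-NC, against 18.1%, 20.5% and 10.5% in shRBM10. Libraries A and B were the highest and library C the lowest, so the groups overlapped. The usage test of PLAUR gave an unadjusted Simes p of 0.925.

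The SERPINE2 form without the extra CAG, NM_001136528, took 68.6% to 73.1% of its gene's count in sh-NC and 69.0% to 75.3% in shRBM10. The form with it, NM_006216, took 15.3%, 1.75% and 14.9% in sh-NC, against 15.9%, 14.8% and 15.4% in shRBM10. The predicted form XM_017004332 took 9.13% to 16.1% across the libraries. The predicted form XM_017004330 took 14.1% in sh-NC replicate 2, the library in which NM_006216 was low, and at most 0.14% in any other library. Whether reads were divided differently between NM_006216 and XM_017004330 in that library was not tested. The unadjusted Simes p of SERPINE2 was 0.00251 (edgeR adjusted p = 0.275; 2.78% of genes had an unadjusted p under 0.05), and it was 0.928 without sh-NC replicate 2, so the value rested on that library. Reads of these forms are divided by estimate, and acceptors this close together are told apart by few reads. NM_006216 has 34 bases that NM_001136528 lacks, the CAG among them, so the estimates need not rest on the acceptor alone.

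SERPINB1 was carried mainly by NM_030666 (73.4% to 86.1%), with 2 predicted forms, XM_011514335 and XM_011514333, at mean shares of 11.4% and 7.16%. SERPINB6 had 4 forms over 5%: NM_004568 (mean share 55.7%), NM_001271822, NM_001297699 (12.6%) and NM_001271824 (9.72%). NM_001271822 took 15.4%, 16.8% and 14.6% in sh-NC, against 18.3%, 21.4% and 20.3% in shRBM10. Its share was higher in every shRBM10 library, where 7.32% of such transcripts were, and its usage p was 0.490 unadjusted. PLAT and SERPINB5 were carried by a single form in effect, NM_000930 (97.3% to 100% of PLAT) and NM_002639 (97.2% to 100% of SERPINB5), and had no second transcript with enough reads for the test on all 6 libraries.

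**Figure D3:**
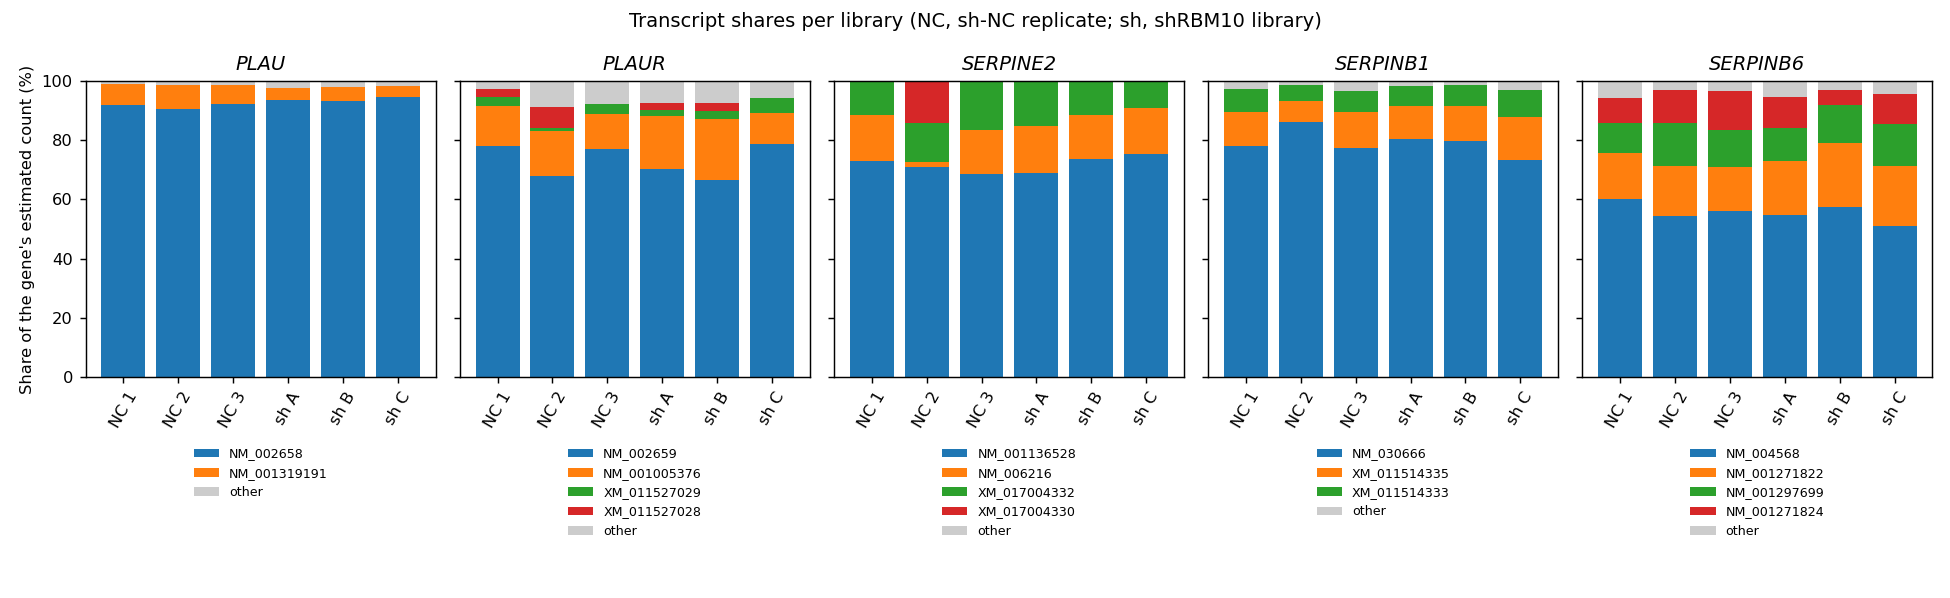
Share of each gene's estimated count taken by its transcripts (vertical axis, percent) in each library for the 5 members with more than 1 tested transcript, with transcripts that never reach 5% in any library added up as other. The red segment of SERPINE2, 14.1%, appears in sh-NC replicate 2 only, and the orange segment of PLAU is thinner in the 3 shRBM10 libraries (3.74% to 4.71%) than in sh-NC (6.23% to 7.88%).

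Among the other serpins, 20 are in the gene table and 9 were tested. Of these, 4 had a positive and 5 a negative fold change (median -0.14), and none was called. SERPINI1, or neuroserpin, an inhibitor of tPA known from the brain, was the 1 serpin past the unadjusted rule, with a log2 fold change of 1.18 (unadjusted p = 0.0138). Its counts were low, 12.7, 10.95 and 8.12 in sh-NC against 16.4, 31.6 and 24.0 in shRBM10, and its fold change was 0.56 with the GC trend removed (edgeR adjusted p = 0.504). SERPINB2, an inhibitor of uPA, had at most 3.08 normalized counts in any library and was not tested.

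The clade B serpins lie in clusters on chromosomes 6 and 18. On chromosome 6, SERPINB9, which inhibits granzyme B, joins SERPINB1 and SERPINB6. It had 12.7, 19.2 and 18.9 normalized counts in sh-NC against 11.3, 12.5 and 7.68 in shRBM10 (log2 fold change -0.68, edgeR adjusted p = 0.279). Every shRBM10 library lay below sh-NC, by a narrow margin, as for 16.2% of all genes tested. The 3 genes of that cluster thus had fold changes of both signs. With the GC trend removed all 3 were negative (SERPINB1 -0.23, SERPINB6 -0.96, SERPINB9 -1.21). On chromosome 18, SERPINB7 (log2 fold change 0.30) and SERPINB8 (0.033) were tested beside SERPINB5 (0.46), and all 3 turned negative with the GC trend removed.

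Further genes of the system were taken from 6 lists by role, of which 85 genes besides the members are in the table and 60 were tested. Of these, 28 had a positive and 32 a negative fold change (median -0.083), and none was called by edgeR, while DESeq2 called 4, where it called 4.72% of all genes in either direction. By the unadjusted rule 9 were higher and 1 lower, against 10.1% and 1.53% of all genes, and with the GC trend removed 2 were higher and 1 lower. Plasminogen-binding and associated proteins were 9 of those tested, and none passed even the unadjusted rule. The nearest was ENO1, the glycolytic enzyme enolase that also binds plasminogen at the surface. It had 55105, 109111 and 57466 normalized counts in sh-NC, against 34547, 39570 and 47299 in shRBM10 (log2 fold change -0.87, unadjusted p = 0.0394).

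The other genes of this list had log2 fold changes of -0.61 (KRT8), -0.35 (CFL1), -0.35 (ACTB), -0.28 (PLGRKT), -0.26 (ANXA2), -0.21 (S100A10), 0.40 (H2BC12) and 0.94 (AHNAK). Their groups overlapped. ANXA2 and S100A10 form the annexin complex that binds tPA and plasminogen together. The list of inhibitors of the activators or of plasmin was drawn widely, and not every serpin in it is known for that role. Among its tested genes, SERPINF2 (the plasmin inhibitor) stood at -0.51 and SERPINI1 at 1.18. SERPINB8 and SERPIND1, listed with them, stood at 0.033 and -0.73.

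Of 15 tested clearance receptors and surface partners, the integrin subunits ITGAV, which forms vitronectin receptors, and ITGB1 were higher by the unadjusted rule. ITGAV had a log2 fold change of 1.38 (unadjusted p = 0.0188), with 852 and 654 normalized counts in libraries A and B and 287 in C against 95.9 to 299 in sh-NC. ITGB1 had 1.12 (unadjusted p = 0.0131), with 7730, 6226 and 3266 against 1610 to 3214. In both, library C lay at or next to the sh-NC level, and neither passed with the GC trend removed (log2 fold change 0.64 for ITGAV and 0.39 for ITGB1). Of 16 tested proteases upstream of uPA and their SPINT inhibitors, HPN (hepsin) was higher by the same rule at 2.71 to 23.0 normalized counts (log2 fold change 1.29, unadjusted p = 0.0264).

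On the side of coagulation, 10 genes were tested. TFPI, the inhibitor of the tissue factor pathway, had 406, 256 and 358 normalized counts in sh-NC, against 957, 1115 and 511 in shRBM10 (log2 fold change 1.34, unadjusted p = 0.00254). Its relative TFPI2, which inhibits plasmin among other proteases, had 1301, 1987 and 1351 against 519, 678 and 618 (log2 fold change -1.35, unadjusted p = 0.000355, edgeR adjusted p = 0.102). These relatives thus stood apart in opposite directions, as did 13.8% of all genes tested upward and 16.2% downward. DESeq2 called both (adjusted p = 0.0152 and 0.00102), where it called 4.72% of all genes. With the GC trend removed the log2 fold change was 0.67 for TFPI, under the fold limit, and -2.03 for TFPI2. PROS1, which encodes protein S, a cofactor of anticoagulant protein C and of TFPI, was higher at low counts (6.35, 2.74 and 12.6 against 49.3, 42.2 and 22.1, log2 fold change 2.30, unadjusted p = 0.00131). DESeq2 called PROS1 too (adjusted p = 0.0157).

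Of the proteases known as targets of clade B serpins, 5 were tested and all had a positive fold change (median 1.07). CTSS (1.45), CASP4 (1.12) and TMPRSS11E (1.07) passed the unadjusted rule, which 10.1% of all genes passed in this direction. The median was 0.21 with the GC trend removed, and none passed there. The target proteases of SERPINB1, ELANE and PRTN3, were at 15.1 normalized counts or fewer and were not tested.

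**Figure D4:**
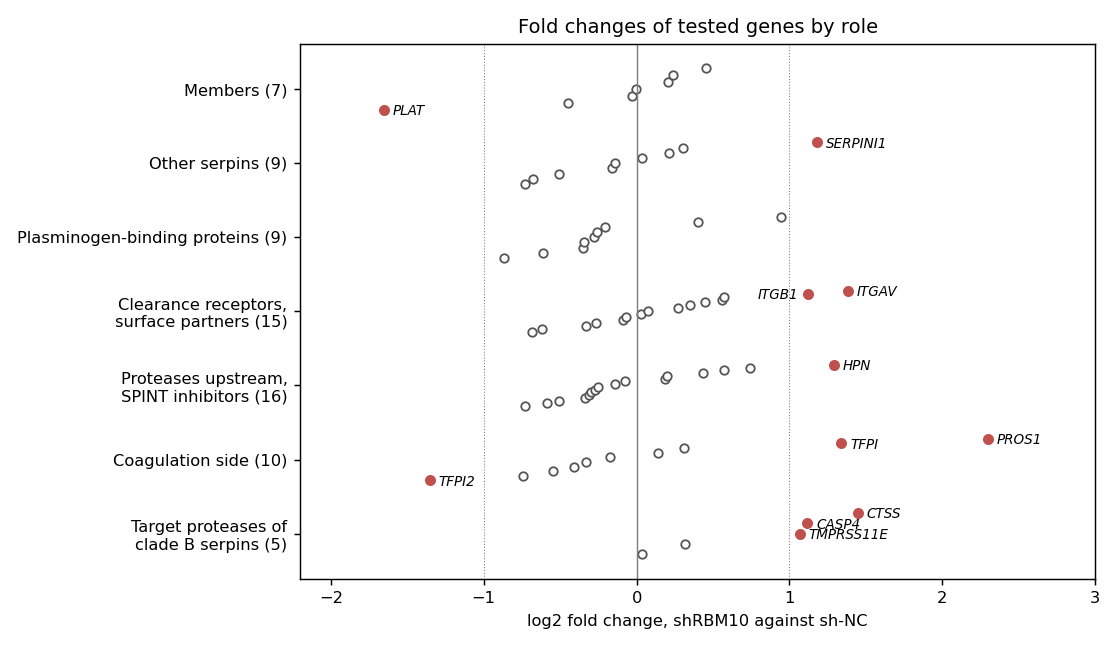
Log2 fold change of shRBM10 against sh-NC (horizontal axis) for each tested gene by role (rows, with the number tested), where filled red points passed an unadjusted p under 0.05 with an absolute log2 fold change over 1 and dotted lines mark that fold limit. PLAT (-1.65) and TFPI2 (-1.35) are the filled points below 0, and the 9 filled points of the role lists above 0 run from TMPRSS11E (1.07) to PROS1 (2.30).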

How the data were processed

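Poly(A) RNA-seq of 3 sh-NC and 3 shRBM10 samples of PC9 was used, sequenced by BGI-Tech. The authors deposited estimated counts per gene (16306 genes) and per RefSeq transcript (76563 transcripts), with the genome build hg38 per the submitters' processing notes. The aligner and the counting tool are not given in the sources used here. The 36 columns of FPKM, TPM and normalized counts and 8 columns of group means per table were not used. Library preparation is described with 2 kits, not assigned to libraries.

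Estimated counts were rounded, and genes were filtered (filterByExpr) and scaled by TMM. The quasi-likelihood test (glmQLFit, then glmQLFTest) was run in edgeR 4.0.16 under R 4.3.3 on all 6 libraries without covariates. Each SE is the fold change over the root of its F. The 95% intervals use the t distribution with the degrees of freedom of that fit. P-values were adjusted by Benjamini-Hochberg over all genes tested. Transcript usage was tested with diffSpliceDGE. The scripts were tested on simulated data. DESeq2 1.42.0, limma-voom (limma 3.58.1), other normalizations and filters, GC and length trends (natural splines with 5 degrees of freedom, GC content known for 99.6% of tested genes) and each library left out were the alternatives. Removal of the GC trend without sh-NC replicate 2 and the length of the transcript with the most reads were added after seeing the data.

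The members and lists were chosen with earlier results of these data known. All members were named. Of other serpins and each list, up to 5 genes past the unadjusted rule were named by smallest p. Plasminogen-binding and associated proteins and genes of the list of activator inhibitors with a mean count over 50 were also named. One gene that this rule names is not reported here. SERPINB2, SERPINB7, SERPINB8, SERPINB9, SERPIND1, ELANE, PRTN3 and the markers were named for their role. Transcripts were named at a mean share of 5% or more, plus XM_017004330, which was chosen after its values were seen. Similar genes are the 3 nearest with a mean count over 50 and a pseudocount of 1. Library pairs were compared by chi-square over genes. sh-NC replicates 1 and 3 were the closest pair, at 2.93 per degree of freedom, more than counting error alone gives, and were kept as separate samples. Loci, exon lengths, GC content and sequences are from GENCODE release 29 (GRCh38). The overlap of PLAU with C10orf55 used a PLAU exon set of 2687 bases, while that of release 29 has 2950. No sequence is shown for PLAT.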

Additional observations from a re-analysis of the deposited data

How the results depend on the processing

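Of the 7 fold changes, those of PLAT and SERPINB6 kept their sign in all 16 alternatives. PLAT was called by DESeq2 (-1.67), without a filter on low counts (-1.65) and with the GC trend removed and sh-NC replicate 2 left out (-1.92), so that 1 member was called in each of these. With GC and length trends removed, 2 members were lower by the unadjusted rule. The sign turned for PLAU with upper quartile (0.042), library size only (0.11), at least 10 counts in every library (0.018), the GC trend removed (0.14), GC and length trends removed (0.25) and the GC trend removed without sh-NC replicate 2 (0.096). It turned for SERPINE2 with upper quartile (0.013) and library size only (0.081), for SERPINB1 with the GC trend (-0.23) and with GC and length trends removed (-0.032), and for SERPINB5 likewise (-0.38 and -0.19). Leaving out single libraries gave -0.27 to 0.14 for PLAU, -0.050 to 0.37 for PLAUR, -2.005 to -1.51 for PLAT, -0.18 to 0.050 for SERPINE2, 0.043 to 0.46 for SERPINB1, 0.11 to 0.94 for SERPINB5 and -0.60 to -0.18 for SERPINB6. Members whose groups do not overlap numbered 3 with the GC trend removed and 3 with GC and length trends removed. They numbered 1 to 3 when single libraries were left out and 4 with the GC trend removed without sh-NC replicate 2. Of all 12620 genes tested, 1656 were apart and higher and 2178 lower with the GC trend removed, and 1869 and 2345 with both trends removed. Of 12743 genes without shRBM10 library C, 4199 were higher and 3889 lower. Of 12795 genes without sh-NC replicate 2, 2344 were higher and 3642 lower. For the setting with 4 members the share over all genes is not given here, so that count has no background. The cause of these shifts was not tested.

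Other serpins that were higher by the unadjusted rule numbered 2 without a filter, 0 with at least 10 counts, 0 with the GC trend, 0 with GC and length trends removed and 0 to 2 when single libraries were left out. Those lower numbered 1 with the GC trend, 1 with GC and length trends removed, 1 with the GC trend removed without sh-NC replicate 2 and 0 to 1 with single libraries left out. In the role lists the higher genes numbered 5 with at least 10 counts, 2 with the GC trend, 2 with GC and length trends removed, 4 with the GC trend removed without sh-NC replicate 2 and 5 to 8 with single libraries left out. The lower genes numbered 2 without a filter, 2 with GC and length trends removed and 1 to 3 with single libraries left out. Over all genes tested the same rule gave 1272 higher and 193 lower in the main fit. It gave 267 and 321 with the GC trend removed, and 293 and 285 with GC and length trends removed. Without sh-NC replicate 2 it gave 616 and 197, and without shRBM10 library C 1722 and 421. The counts of these lists are therefore not read apart from that background. Per kilobase of the longest transcript the sh-NC means were 2647 (PLAU), 482 (PLAUR), 260 (PLAT), 2171 (SERPINE2) and 359 (SERPINB6), and per kilobase of the transcript with the most reads 3031, 502, 332, 6017 and 1258.

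In the 9 alternatives for transcript usage no member was called. No paired analysis was possible because only 1 of the 3 shRBM10 columns carries a replicate number. Outliers were not tested in groups of 3.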
